A study of Mus musculus with 32 samples.

Results

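The potassium channel genes are the protein-coding mouse genes of the neurite-enrichment tables whose symbol starts with Kcn, followed by lower-case letters and a digit. The rule found 83 such genes among the 23566 genes in those tables. Grouped by symbol, they comprised 38 voltage-gated alpha subunits, 14 auxiliary subunits, 12 tandem-pore channels and 11 inward rectifiers. The other 8 form the calcium- or sodium-activated group, also by symbol. The 38 include subunits that form no channel alone. Another 4 genes of the same symbol pattern were not protein-coding and were left out.

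RNA was measured in primary hippocampal neurons from neonatal mice, grown for 15 days on porous membranes through which neurites pass while cell bodies stay on top. WT (C57BL/6) and Mettl3 KO (Mettl3Flox/Flox) cultures were both transduced at DIV7 with an AAV that expresses Cre-P2A-dTomato from the neuronal hSyn promoter, so the controls carry Cre as well, and cells that do not use this promoter should keep Mettl3. All cultures were silenced from DIV14 for 16 h with tetrodotoxin at 1 µM, which blocks action potentials, and the NMDA receptor antagonist D-AP5 at 50 µM, and KCl cultures then received 55 mM KCl for 2 h, whereas Ctrl cultures did not. Soma and neurite fractions of each genotype and treatment gave 8 RNA-seq groups of 2 libraries, each from 50 ng of total RNA of pooled pups, and the 2 replicates of a group came from distinct litters. Ctrl and KCl cultures of an experiment shared a litter, although nothing ties replicate numbers to litters. Neurites that stayed above the membrane were collected with the soma.

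Potassium channels let potassium leave the cell and thereby set the resting potential, end action potentials and limit firing rate. Voltage-gated alpha subunits assemble as tetramers, auxiliary subunits change their gating and transport, inward rectifiers and tandem-pore channels act near rest, and calcium- or sodium-activated channels follow the ions that enter during activity. In hippocampal neurons their proteins are placed in separate membrane domains, such as Kv1 channels along axons, Kv2 channels on the soma, Kv4 channels in dendrites and Kv7 channels at the axon initial segment.

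Library totals ran from 33789183 to 71394235 counts, and the potassium channel genes took 0.091% to 0.267% of them. Mettl3 was lower in every Mettl3 KO library than in the WT libraries of the same fraction and treatment, at 3.88 to 11.6 CPM (counts divided by the scaled library size and expressed on the usual CPM scale) against 8.90 to 17.3. This count covers the whole gene and does not single out the deleted exons. Fos and Npas4, which neurons induce on depolarization, were raised in WT soma by KCl by 7.80 ± 0.15 and 7.94 ± 0.33 on the log2 scale (SE, n = 2 against 2). Camk2a, a dendritic mRNA, was higher in WT Ctrl neurites than soma by 2.06 ± 0.14. Both libraries of KCl-treated Mettl3 KO insert 1 stood apart: their astrocyte markers summed to 9591 and 18569 CPM and their oligodendrocyte lineage markers to 3689 and 7342 CPM, against 2545 and 2736 and 85.4 and 94.0 CPM in replicate 2, and their potassium channel shares were 0.127% and 0.091%. Markers of other cells also summed higher in WT Ctrl neurites than soma. This held for astrocytes (2029 and 3266 against 1201 and 1218 CPM, 5 of 10 genes called), fibroblasts and vascular cells (144 and 172 against 37.9 and 32 CPM, 5 of 9), the oligodendrocyte lineage (121 and 124 against 61.1 and 69.7 CPM, 2 of 8) and microglia (23.2 and 29.4 against 14.1 and 12.3 CPM, 2 of 7). In Mettl3 KO Ctrl the astrocyte sum was above WT in soma (2472 and 2060 CPM), while in neurites (7151 and 2933 CPM) it overlapped with WT. The part of these other cells in each result below was not tested unless a value is given beside it. In all comparisons, fewer cells of a type and less RNA per cell cannot be told apart.

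Potassium channel RNA was dominated by a small number of genes. Levels between genes are compared per length, as fragments per kilobase of exon and scaled library size (FPKM). In WT Ctrl soma the 10 most abundant genes held 59.9% and 60.2% of the summed FPKM of all 83, 22 genes had a mean above 5 FPKM, 31 lay between 1 and 5, and 30 were below 1. Kcnk1, which encodes the tandem-pore channel TWIK-1, ranked first at 81.8 and 79.8 FPKM. Kcnab2, the Kv beta subunit that binds Kv1 channels, followed at 42.4 and 48.4 FPKM. Kcna1, the axonal Kv1.1 subunit, had 35.5 and 35.2 FPKM, and these 3 genes did not overlap each other in the soma libraries.

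The next genes were less far apart. Kcnip2, an auxiliary subunit (KChIP) of Kv4 channels, had 21.7 and 21.5 FPKM and Kcna6, another Kv1 subunit, 19.7 and 20.3. The Kv3 subunits Kcnc4 and Kcnc1 had 12.5 and 11.9 FPKM and 12.2 and 10.7 FPKM. Both overlapped with the KChIP gene Kcnip3 (10.5 and 12.6), so the order of these 3 was not resolved by 2 libraries. Kcnip1 (10.3 and 10.4) and the halothane-inhibited tandem-pore channel gene Kcnk12 (10.2 and 8.88) completed the 10. Kcna1 aside, the landmark subunits of dendrites and axon named here were lower. The dendritic Kv4.2 gene Kcnd2 had 2.7 and 2.52 FPKM, the M-current subunit gene Kcnq3 2.61 and 2.67, and the axonal Kcna2 1.45 and 1.30. The calcium-activated channels Kcnma1 (BK) and Kcnn2 (SK2) had 5.29 and 4.87 and 1.45 and 1.34 FPKM, and Kcnj10, the inward rectifier of astrocytes, only 0.44 and 0.37.

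**Figure D1:**
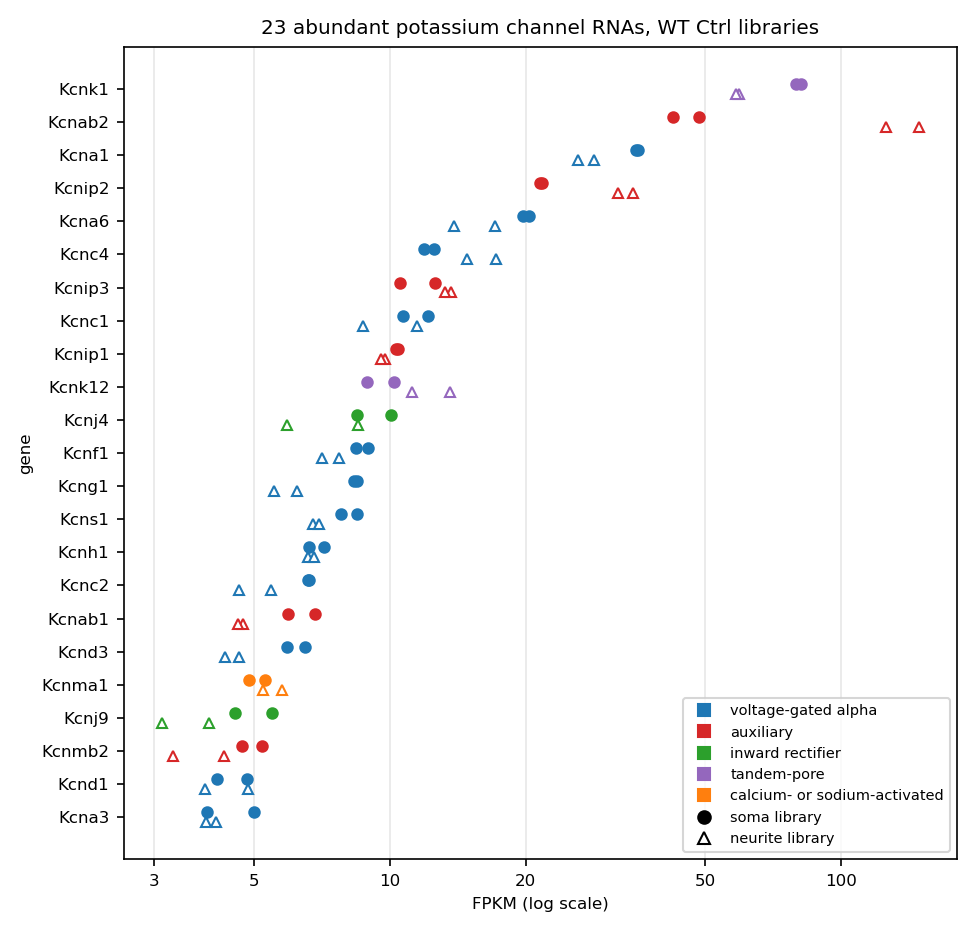
Level of 23 of the 25 most abundant potassium channel RNAs in FPKM (x axis, log scale) in each WT Ctrl library; filled circles are the 2 soma libraries, open triangles the 2 neurite libraries, and colours the families. Kcnk1 leads in soma at 81.8 and 79.8 FPKM, whereas Kcnab2 leads in neurites at 126 and 149 FPKM.

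By family, voltage-gated alpha subunits summed to 182 and 181 FPKM in WT Ctrl soma and 173 and 162 in neurites. Auxiliary subunits had 103 and 111 FPKM in soma and 198 and 222 in neurites, and Kcnab2 accounted for most of the gap, since the other 13 auxiliary genes summed to 60.4 and 62.5 in soma and 72.0 and 72.9 in neurites. Tandem-pore channels had 105 and 101 FPKM in soma and 86.5 and 82.5 in neurites, of which all but 22.7 and 21.2 in soma was Kcnk1. Inward rectifiers summed to 24.5 and 24.3 FPKM and calcium- or sodium-activated channels to 14.5 and 14.3 FPKM in soma, with 20.02 and 21.8 and 15.1 and 15.3 in neurites. These family sums are descriptions without a test. In both neurite libraries 19 of the 83 genes were above 5 FPKM, the study's limit for expression in neurites, and in both soma libraries 20.

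The study mapped N6-methyladenosine (m6A) with DART-seq, in which an APOBEC1-YTH fusion protein deaminates cytidines beside m6A, so that a methylated RAC (R is A or G) reads as a C-to-U change. Sites were called by requiring more editing in WT than in Mettl3 KO libraries, so that a lower KO score is set by the calling and is not a finding. The deposited values are averages over libraries without coverage, so no error can be given. Per the study's description, the soma and neurite averages each pool Ctrl and KCl cultures. Of the 83 genes, 21 had a called site, 67 sites in all, and 62 had none. This was 25.3% of them, beside 34.8% of all protein-coding genes. Genes with a site had a median count of 2618 over the WT libraries and those without one of 261. Among genes with a mean WT count of at least 3000, 8 of 9 potassium channel genes (88.9%) had a site, against 82.0% of all protein-coding genes, and between 1000 and 3000 it was 7 of 20 (35.0%) against 49.1%. From 100 to 1000 it was 6 of 34 (17.6%) against 13.3%, and below 100 it was 0 of 20 against 1.56%.

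The sequences below are 21-base windows around the edited cytidine in GRCm38 (RefSeq sequence), 5′ to 3′ on the strand of the gene, with the methylated A, its preceding purine and the edited C in capitals. They are shown because each is the strongest site of a gene with a high score or strong editing, or of a gene that the later comparisons turn on.
Kcna2, 3′UTR, chr3:107114701-107114721, plus strand: ttcttgctGACatattctgga
Kcnma1, 3′UTR, chr14:23295288-23295308, minus strand: atagatgcAACactttaagaa
Kcnip2, 3′UTR, chr19:45793320-45793340, minus strand: ccacactaGACggaatatctc
Kcnab1, 3′UTR, chr3:65377836-65377856, plus strand: cattttctAACtcttatttgt
Kcna1, 5′UTR, chr6:126643503-126643523, minus strand: aagttgcaGACttctgaacct
Kcnf1, 3′UTR, chr12:17172853-17172873, minus strand: agctgagtGACcttgggacag
Kcnk9, 3′UTR, chr15:72507767-72507787, minus strand: caagtgttGACacagagcatt
Kcnq5, intron, chr1:21512323-21512343, minus strand: gatttattAACcatttttgtg

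The single site of Kcna2 had the highest C2U fraction of the 67, at 23.4%. The strongest site of Kcnma1 had 18.03%, that of Kcnq5 14.6%, that of Kcnip2 13.8%, and those of Kcnab1 and Kcna1 13.6% each. The other shown sites had 10.5% (Kcnk9) and 6.67% (Kcnf1). Over all 67 sites the fraction ran from 0.729% to 23.4% with a median of 4.93%, beside 3.54% over the 18231 sites of all RNAs. By GENCODE M21, 32 sites lay in a 3′UTR, 27 in coding sequence, 2 in a 5′UTR, 5 in an intron and 1, in Kcna1, downstream of the annotated end, where the study also searched. The study describes a search of exons and extended 3′UTRs, so the 5 intron sites may be placed otherwise in its annotation, which was not tested.

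Sites were not spread evenly. Kcnip2 carried 9, Kcnab2 8, Kcnab1 7 and Kcnc4 and Kcnma1 4 each. Those of Kcnab2 lay mostly in its 3′UTR (6 of 8), while those of Kcnab1 (6 of 7) and Kcnip2 (6 of 9) lay mostly in coding sequence. The 4-base sequence GGAC ended at the edited C in 3 of the 67 sites (4.48%), against 16.2% of all sites, and GAC did so in 46.3% against 53.7%. The 5-base DRACH consensus (D is A, G or T; H is A, C or T) was met by 45 of 67 (67.2%) against 70.9%. Sites of 1 RNA are not independent, and these shares carry no test.

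The study defines the editing score of an RNA as a sum over its sites of average editing. The deposited site fractions do not add up exactly to the WT scores. They sum to 0.350 for Kcnma1 and 0.468 for Kcnip2, whose WT scores follow. High WT scores were 0.448 (Kcnab1), 0.426 (Kcnip2), 0.309 (Kcna1) and 0.297 (Kcnma1), and the median of the 21 genes was 0.127, beside 0.103 over 5643 RNAs. The score was higher in neurites than soma for 14 of the 21 genes, beside 68.8% of all RNAs, with a median ratio of 1.32 beside 1.33. Kcnab2 had 0.151 in soma and 0.301 in neurites, and Kcnq5 0.117 and 0.377. Kcnf1 had 0.139 in soma and 0.0447 in neurites, and Kcnk9 0.137 and 0.0279. These values describe averages pooled over Ctrl and KCl cultures. Kcnk9 rests on a single site, and both sites of Kcnq5 lie in an intron by GENCODE M21.

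**Figure D2:**
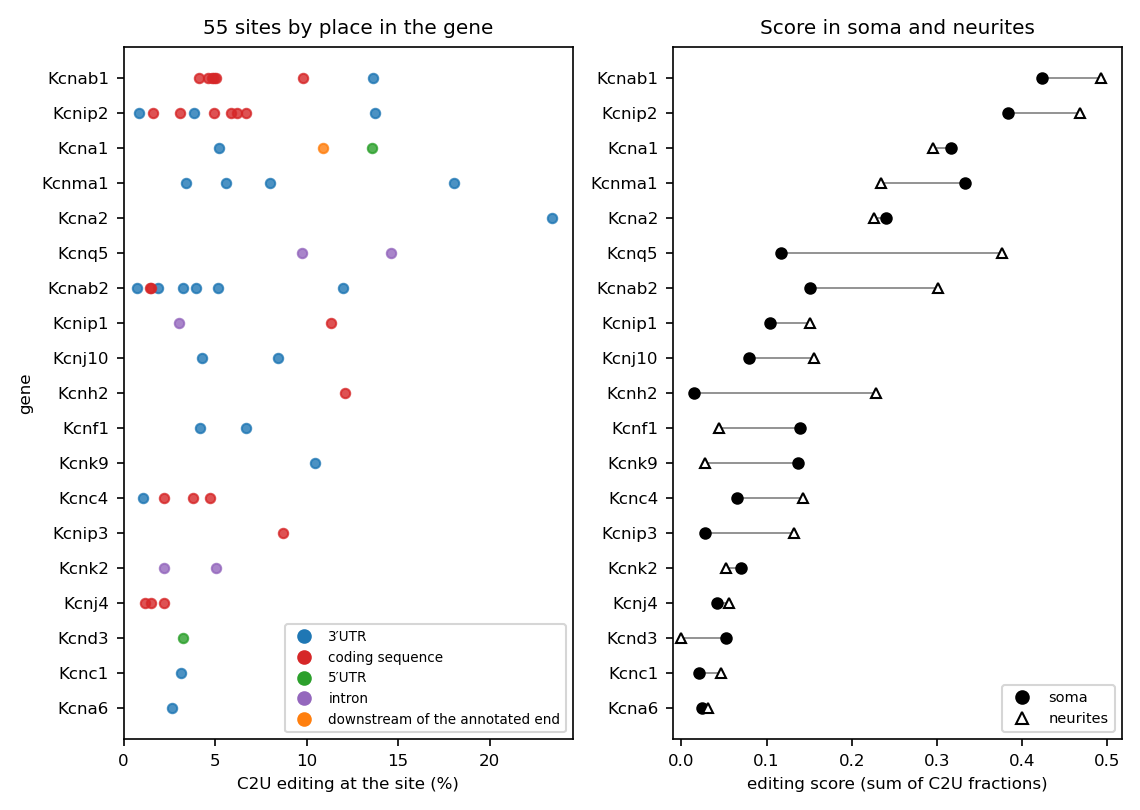
Left, C2U editing in percent (x axis) at each of 55 sites of 19 potassium channel genes, ordered by WT score, coloured by place in the gene; right, the deposited editing score (x axis, sum of fractions) in soma (filled circles) and neurites (open triangles). Kcna2 holds the strongest site, at 23.4%, and 12 of the 19 genes plotted have the higher score in neurites.

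Which potassium channel RNAs were placed in neurites was asked by comparing neurites with soma in WT Ctrl. A gene was called at 1.5-fold and an adjusted p of at most 0.05. Of the 83 genes 79 passed the count filter, 4 were higher in neurites (9.01% of all genes tested were) and 2 lower (4.54%). The median log2 ratio of the 79 was −0.11, beside −0.10 for all genes, and 32 of the 79 passed a p of 0.05 before adjustment (34.5% of all genes). Kcnab2 had the smallest p among the rises, with 296 and 338 CPM in soma and 878 and 1041 CPM in neurites. Both neurite libraries lay above both soma libraries, and the log2 ratio was 1.53 ± 0.23 (edgeR, adjusted p = 0.00188). Kcnq5, which encodes Kv7.5 of the M-current, had 3.88 CPM in each soma library and 7.40 and 7.08 in neurites, a log2 ratio of 0.83 ± 0.22 (adjusted p = 0.0254).

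The other called rises were in RNAs of low level. Kcnj5, the GIRK4 subunit of G protein-gated rectifiers, had 1.15 and 1.48 CPM in soma and 4.69 and 2.68 in neurites (log2 ratio 1.43 ± 0.28, adjusted p = 0.00698). Kcne1l, a single-span auxiliary subunit also called Kcne5, had 1.27 and 1.35 CPM in soma and 4.55 and 2.77 in neurites (1.42 ± 0.29, adjusted p = 0.0083). In both, neurite replicate 1 was the highest library and also the neurite library with the higher astrocyte marker sum. Kcnj10, from astrocytes, had 8.18 and 2.89 CPM in these libraries against 2.36 and 2.00 in soma, a log2 ratio of 1.28 ± 0.42 that did not pass (adjusted p = 0.0578), and Kcne1l reached 16.9 and 26.1 CPM in the glia-rich KCl-treated Mettl3 KO insert 1. Kcnj5 was at 0.93 and 0.13 CPM in that insert.

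Lower in neurites were Kcnk9 and Kcna5. Kcnk9, the tandem-pore acid-sensitive channel TASK-3, had 28.6 and 22.5 CPM in soma and 15.6 and 9.79 in neurites (log2 ratio −1.08 ± 0.20, adjusted p = 0.006). Kcna5, the Kv1.5 subunit, had 2.19 and 2.27 CPM in soma and 0.97 and 1.16 in neurites (−1.14 ± 0.27, adjusted p = 0.0151). The groups did not overlap in either gene. Another 2 genes were higher and 7 lower at an adjusted p of at most 0.05 with less than 1.5-fold, among them Kcnip2 (0.56 ± 0.12, adjusted p = 0.0106), Kcnk1 (−0.52 ± 0.11, adjusted p = 0.0092), Kcnd3 of the Kv4 family (−0.54 ± 0.11, adjusted p = 0.0102) and Kcna1 (−0.44 ± 0.13, adjusted p = 0.0346).

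Kcna1 aside, which is given above, the landmark genes of dendrites and axon had smaller ratios. Kcnd2 had a log2 ratio of 0.19 ± 0.14, Kcnq3 of −0.04 ± 0.11, Kcna2 of −0.14 ± 0.23 and Kcnma1 of 0.05 ± 0.12, none of which passed. Kcnc1 and Kcnn2 were −0.25 ± 0.14 and −0.36 ± 0.20. Of the 27 listed partner genes of the channels 24 were tested and 5 called: the scaffolds Dlg2 (1.21 ± 0.15), Dlg4 (0.95 ± 0.19) and Ank2 (0.59 ± 0.15) were higher, and Dpp6, a Kv4 partner (−0.66 ± 0.13), and Lgi1, a secreted Kv1 partner (−0.69 ± 0.10), lower.

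The calls in WT Ctrl rested on the spread of the 8 WT libraries. With all 16 libraries in the fit no potassium channel gene was called (Kcnab2 had 1.63 at an adjusted p of 0.567), while DESeq2 and a fit of the 4 libraries alone each called 10. Of all 23200 genes DESeq2 called 2325 higher and 914 lower, and the fit of 4 libraries 2458 and 745. Kcnab2 remained called whichever library was left out. Without soma replicate 1 it was the only call. Kcne1l and Kcna5 also lost their call without soma replicate 2, Kcna5 without neurite replicate 1, and Kcnq5 without any 1 of the 4 libraries.

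After KCl, 5 genes were higher in WT neurites than soma (6.87% of all genes) and 6 lower (2.73%) of 82 tested, with a median log2 ratio of −0.07 beside −0.03 for all genes. At a p of 0.05 before adjustment 21 passed, beside 28.7% of all genes. Kcnab2 (1.61 ± 0.23, adjusted p = 0.00186), Kcnj5 (1.01 ± 0.27, adjusted p = 0.0323) and Kcnk9 (−0.85 ± 0.20, adjusted p = 0.0213) were called as without KCl. Kcnip2 had 44.1 and 47.8 CPM in KCl soma and 86.5 and 76.5 in KCl neurites (0.84 ± 0.12, adjusted p = 0.00206). Kcnc4 had 20.6 and 26.5 CPM in soma and 41.9 and 37.8 in neurites (0.77 ± 0.15, adjusted p = 0.00792). Both neurite libraries exceeded both soma libraries in these genes, as also for Kcnk12, with 4.38 and 9.52 against 15.8 and 13.6 CPM (1.08 ± 0.29, adjusted p = 0.0355).

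The strongest call toward the soma was Kcnf1, a Kv5.1 subunit that forms no channel alone and modifies Kv2 channels. It had 64.5 and 80.5 CPM in KCl soma and 34.8 and 29.8 CPM in KCl neurites (−1.15 ± 0.14, adjusted p = 0.00109). The Kv3.2 gene Kcnc2 had 66.6 and 69.2 CPM in soma and 41.4 and 40.6 in neurites (−0.71 ± 0.11, adjusted p = 0.003). Both soma libraries exceeded both neurite libraries in these genes. Kcnk1 (−0.63 ± 0.11), the GIRK3 gene Kcnj9 (−0.65 ± 0.17) and the BK beta subunit gene Kcnmb2 (−0.60 ± 0.18) were lower at adjusted p of 0.00524, 0.0321 and 0.0462.

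Of 25 partner genes tested after KCl, Vapb, a tether of the endoplasmic reticulum that binds Kv2 channels (0.83 ± 0.15), Dlg1 (0.72 ± 0.18), Dlg2 (0.86 ± 0.15) and Dlg4 (1.25 ± 0.19) were higher in neurites and Lgi1 lower (−0.79 ± 0.10). Astrocyte markers summed to 1624 and 1637 CPM in KCl soma and 2316 and 2768 in KCl neurites. With all 16 libraries in the fit no potassium channel gene was called, and without neurite replicate 1 or 2 the count was 5. Kcnf1, Kcnab2, Kcnip2 and Kcnc2 remained called whichever library was left out. Kcnk1 lost its call without neurite replicate 2 or soma replicate 1, and Kcnc4 without neurite replicate 1. Kcnk9, Kcnj9, Kcnmb2, Kcnk12 and Kcnj5 lost theirs without either neurite library, Kcnj9, Kcnmb2 and Kcnj5 also without soma replicate 1, and Kcnk9 and Kcnj5 without soma replicate 2. Kcnk12 and Kcnmb2 also lost it in a fit of the 4 libraries alone, and Kcnk12 with the replicate block (adjusted p = 0.0501).

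**Figure D3:**
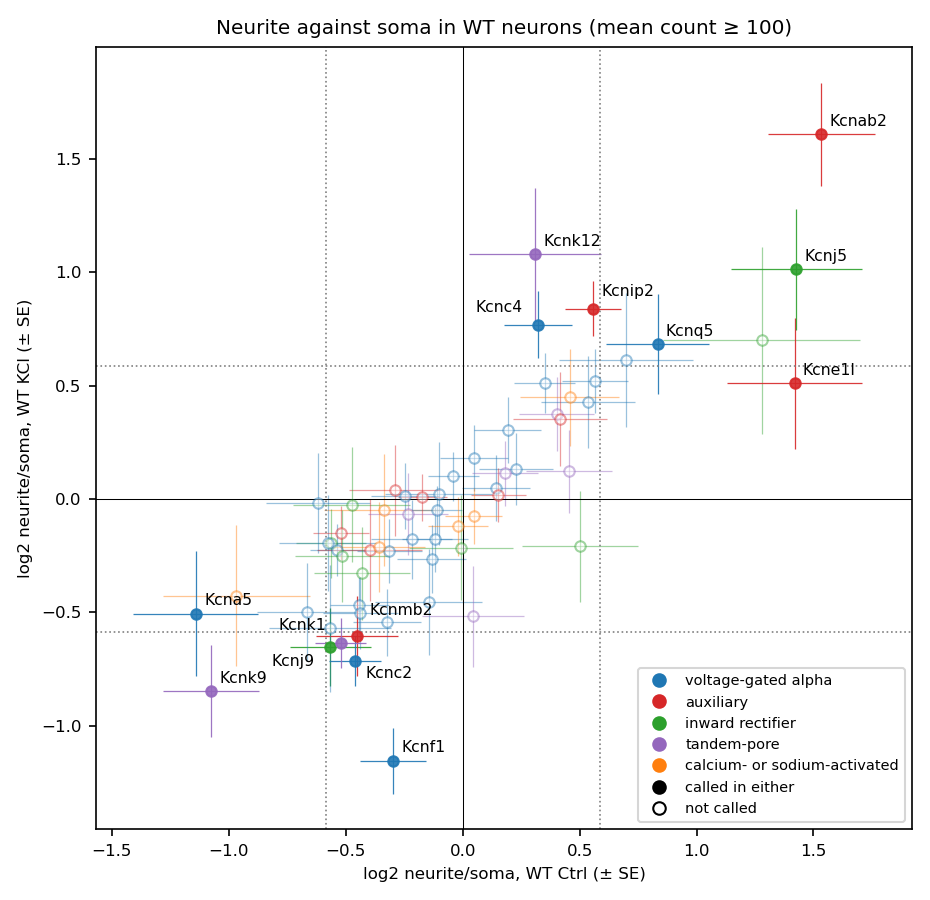
Log2 ratio of neurites to soma in WT Ctrl (x axis) and WT KCl (y axis) with standard errors, for the 63 potassium channel genes whose mean count is 100 or more; filled points are the 14 genes called in either, dotted lines mark 1.5-fold. Kcnab2 sits at the upper right (1.53 and 1.61), and Kcnf1 at the bottom (−0.30 and −1.15).

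Of the 14 genes called in either WT comparison 6 carried DART-seq sites. Among all protein-coding genes called in either, 48.2% of those higher in neurites and 29.8% of those lower had a score. The 4 of these that were higher in neurites had a higher editing score in neurites than soma, by ratios of 2.00 (Kcnab2), 1.22 (Kcnip2), 2.18 (Kcnc4) and 3.21 (Kcnq5). The Kcnq5 score rests on intron sites alone, which may not belong to the spliced RNA compared here. The 2 that were lower in neurites, Kcnf1 and Kcnk9, had ratios of 0.321 and 0.204. The neurite score was the higher in 76.7% of all genes with a score that were higher in neurites and in 56.6% of those that were lower, so that no link is read from these 6. The scores are fractions of reads and are pooled over Ctrl and KCl libraries, so that no error can be given and they match neither comparison alone.

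The response to depolarization was asked by comparing KCl with Ctrl in WT soma, with 2-fold as the limit. All 83 genes were tested, 3 were higher (3.74% of all genes) and 4 lower (2.96%), and the median log2 change was −0.10 beside 0.01 for all genes. At a p of 0.05 before adjustment 23 passed (26.1% of all genes). Kcnj2, which encodes Kir2.1, a strong inward rectifier that holds neurons near rest, had 0.95 and 0.86 CPM in Ctrl soma and 7.30 and 8.64 in KCl soma. This was a log2 change of 3.14 ± 0.38, or 8.82-fold (edgeR, adjusted p = 0.000427), and Kcnj2 was called in all 11 alternatives. The other rises had few counts: Kcnk5 (TASK-2) had 13 and 9 counts in Ctrl and 35 and 51 in KCl soma (2.14 ± 0.48, adjusted p = 0.0139), and the BK beta subunit gene Kcnmb3 reached 2.66 ± 0.65 (adjusted p = 0.0208) from 0.10 and 0.03 to 0.37 and 0.53 CPM.

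The falls included the pair of halothane-inhibited tandem-pore channels. Kcnk13 had 8.55 and 9.01 CPM in Ctrl and 3.87 and 3.68 in KCl soma (−1.22 ± 0.18, adjusted p = 0.00132). Kcnk12 had 20.1 and 17.5 CPM in Ctrl and 4.38 and 9.52 in KCl soma (−1.42 ± 0.29, adjusted p = 0.00845). Modifier subunits that do not form channels alone fell too: Kcng1 from 37.5 and 38.0 to 14.5 and 21.0 CPM (−1.08 ± 0.21, adjusted p = 0.0063) and Kcnv1 from 3.41 and 4.62 to 1.68 and 2.03 CPM (−1.11 ± 0.26, adjusted p = 0.0185). The Ctrl and KCl libraries did not overlap in any of these 4 genes.

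Several genes passed the adjusted p with less than 2-fold. Kcnc4 fell from 48.0 and 45.7 to 20.6 and 26.5 CPM, a log2 change of −0.99 ± 0.15 just inside the limit (adjusted p = 0.00145), and Kcnip2 from 75.5 and 74.7 to 44.1 and 47.8 CPM (−0.71 ± 0.12, adjusted p = 0.00333). Kcnf1 rose from 40.2 and 42.8 to 64.5 and 80.5 CPM (0.81 ± 0.14, adjusted p = 0.00389) and Kcnc2 from 47.1 and 47.3 to 66.6 and 69.2 CPM (0.53 ± 0.11, adjusted p = 0.0108). The inward rectifier genes Kcnj5 (0.97 ± 0.28, adjusted p = 0.0434) and Kcnj16 (0.86 ± 0.24, adjusted p = 0.0409) rose as well. Kcnf1 and the falling Kcng1 and Kcnv1 are all silent Kv subunits, so that this class held genes of both directions. Kcnc4, Kcnip2, Kcnf1, Kcnc2, Kcnj5 and Kcnj16 fall outside the naming rule for this comparison and were chosen after their values were seen.

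Of the most abundant genes, Kcnk12, Kcnc4 and Kcnip2 passed the adjusted p, as given above. For other abundant or landmark genes the log2 change in soma was 0.08 ± 0.12 (Kcna1), −0.10 ± 0.15 (Kcnd2), −0.07 ± 0.11 (Kcnq3) and −0.01 ± 0.12 (Kcnma1). Kcnc1 had −0.45 ± 0.14 (edgeR, adjusted p = 0.065), and none of these passed. Other members of these families had larger values, such as −0.83 ± 0.26 for Kcna5 (adjusted p = 0.0588), named after its value was seen. Kcnk1 was −0.10 ± 0.11 and Kcnab2 −0.28 ± 0.22. Of 25 partner genes, only Lrrc26, a BK gamma subunit gene, was called (2.07 ± 0.52, adjusted p = 0.024).

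In WT neurites 1 gene of 80 was higher after KCl (3.33% of all genes) and 3 were lower (1.70%), with a median of −0.01 beside 0.01. At a p of 0.05 before adjustment 17 passed, beside 22.8% of all genes. Kcnj2 had 0.47 and 1.37 CPM in Ctrl and 6.05 and 4.38 in KCl neurites (2.65 ± 0.41, 6.30-fold, adjusted p = 0.00279). Kcnk13 fell from 7.67 and 7.98 to 3.89 and 3.26 CPM (−1.04 ± 0.18, adjusted p = 0.00501), and Kcnv1 from 3.29 and 2.35 to 1.35 and 1.13 CPM (−1.10 ± 0.28, adjusted p = 0.036). Kcnj11, the pore of ATP-sensitive potassium channels, fell from 7.33 and 9.56 to 4.41 and 3.36 CPM (−1.03 ± 0.23, adjusted p = 0.0209), and in soma from 8.12 and 8.09 to 5.27 and 3.87 CPM (−0.83 ± 0.23, adjusted p = 0.0345). The Ctrl and KCl neurite libraries did not overlap in these 4 genes, and neither Kcnk12 (−0.65 ± 0.29) nor Kcng1 (−0.70 ± 0.21) passed in neurites. Among genes not called, the smallest p toward a rise were those of Kcnc2 (0.28 ± 0.11, adjusted p = 0.164) and Kcnj9 (0.42 ± 0.17, adjusted p = 0.179). Lrrc26 was again the only partner gene called of 24 (3.06 ± 0.64, adjusted p = 0.0144).

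**Figure D4:**
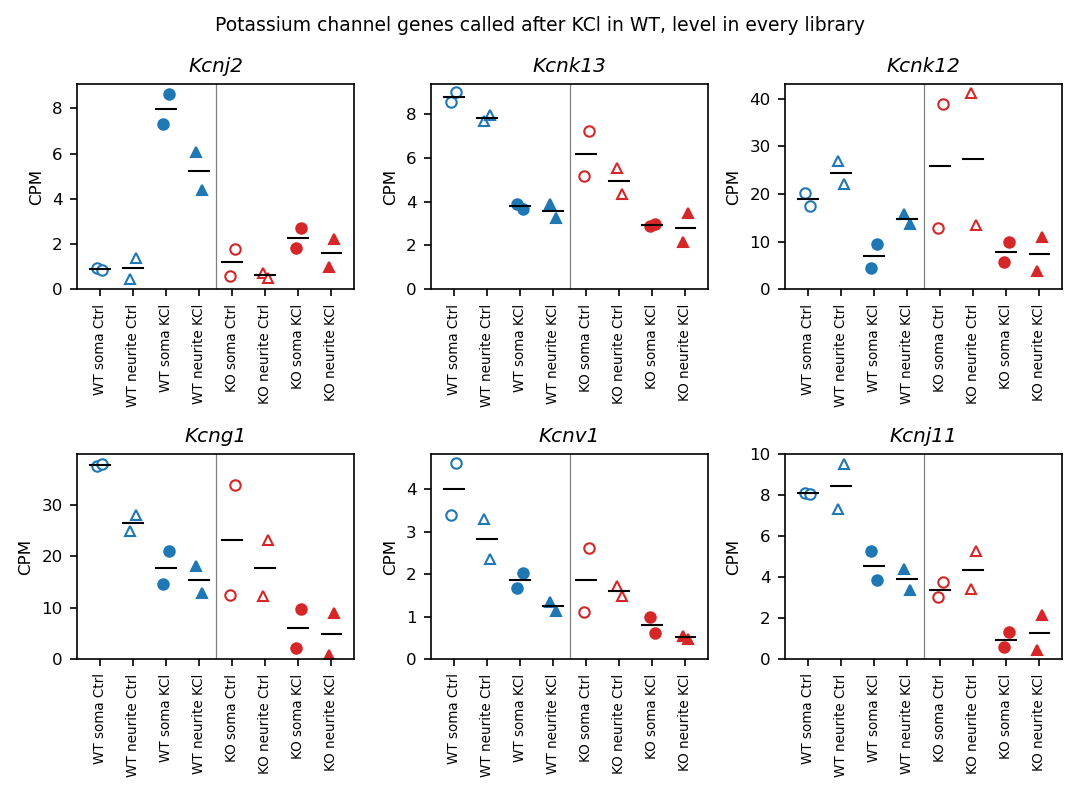
CPM (y axis, from 0) of 6 potassium channel genes called after KCl, in each of the 16 libraries; circles are soma and triangles neurites, open for Ctrl and filled for KCl, blue for WT and red for Mettl3 KO, with a bar at the mean of 2. In WT soma Kcnj2 rises from 0.95 and 0.86 to 7.30 and 8.64 CPM, while Kcnk13, Kcnk12, Kcng1 and Kcnv1 fall.

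The WT responses depended on single libraries. With all 16 libraries in the fit Kcnj2 in soma was the only call left, and none was left in neurites. In soma the count was 2 without Ctrl replicate 1 and 3 without Ctrl replicate 2, Kcnk13 remained called whichever library was left out, and each of Kcng1, Kcnk12, Kcnk5, Kcnv1 and Kcnmb3 lost its call without Ctrl replicate 1. Kcng1 and Kcnv1 also lost it without Ctrl replicate 2 or KCl replicate 1, Kcnk12 without KCl replicate 1, Kcnk5 without Ctrl replicate 2 and Kcnmb3 without Ctrl replicate 2 or KCl replicate 2. In neurites the count was 2 without Ctrl replicate 2 and 1 without KCl replicate 2, Kcnk13 and Kcnj11 lost their call without either of these, and Kcnv1 without Ctrl replicate 1 or either KCl library, with the 4 libraries alone and with the replicate block (adjusted p = 0.0588). Kcnj2 in neurites remained called whichever library was left out, at log2 changes from 1.98 (without Ctrl replicate 1) to 3.59 (without Ctrl replicate 2).

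The same genes in Mettl3 KO soma were more spread. Kcnj2 had 0.57 and 1.79 CPM in Ctrl and 1.81 and 2.7 in KCl, a log2 change of 0.93 ± 0.72 (adjusted p = 0.771). Kcnk13 had 5.16 and 7.22 against 2.89 and 3.0 CPM (−1.07 ± 0.50, adjusted p = 0.751), and Kcnk12 had 12.8 and 38.8 against 5.75 and 9.80 CPM (−1.73 ± 0.79, adjusted p = 0.751). The libraries did not overlap, but edgeR called no potassium channel gene of 80 tested, nor any other gene (0%). DESeq2 called none of the 80, beside 219 higher and 51 lower of all 23679 genes. At a p of 0.05 before adjustment 1 of the 80 passed in edgeR, beside 6.60% of all genes. That gene was Kcnj12, a Kir2 rectifier (−2.60 ± 1.02, adjusted p = 0.751), with Kcnj11 (−1.84 ± 0.82) next among the falls and Kcne1l (1.81 ± 1.16), Kcnj16 (1.75 ± 1.17) and Kcnn4 (0.90 ± 0.71) among the rises. The last 3 were highest in the glia-rich insert 1. Whether the response of Kcnj2 differs between WT and Mettl3 KO was not tested.

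Changes in neurite enrichment by KCl were tested as the difference of the neurite-to-soma log2 ratios, with calls at 1.5-fold and p of 0.05 or less before adjustment. Of 82 genes none was higher (2.00% of all genes) and Kcnf1 alone lower (1.35%), and at this p without a fold limit it was again the only one, beside 4.16% of all genes. The median difference was 0.02 beside 0.05 for all genes. For Kcnf1 the neurite-to-soma log2 ratio was −0.30 ± 0.14 in Ctrl and −1.15 ± 0.14 in KCl, and the difference −0.85 ± 0.23 (edgeR, adjusted p = 0.999). Between Ctrl and KCl its soma level rose, as given above, whereas its neurite level was 36.9 and 33.8 CPM in Ctrl and 34.8 and 29.8 in KCl. Next in order of p, and not called, were Kcnk12 (0.86 ± 0.39), Kcnc4 (0.46 ± 0.22) and the Kv beta gene Kcnab1 (0.37 ± 0.18) toward neurites, and Kcne1l (−0.90 ± 0.43) and Kcnj16 (−0.68 ± 0.36) toward soma. No potassium channel gene passed an adjusted p. Without KCl insert 2 the value for Kcnf1 was −0.54 and no longer past 1.5-fold. Fits without single inserts leave 1 insert in a group, and in some of them other genes were called. Of 24 partner genes the adhesion protein Amigo2 was called (1.35 ± 0.45, adjusted p = 0.999).

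Mettl3 KO was compared with WT, Ctrl against Ctrl, at 1.5-fold. WT and Mettl3 KO neurons came from separate mouse lines and litters. Loss of Mettl3 and differences of line or litter therefore cannot be told apart in these comparisons. In soma edgeR called no potassium channel gene of 79, while 0.0632% of all genes were higher and 0.122% lower. Before adjustment 12 of the 79 passed a p of 0.05, 3 higher and 9 lower, beside 8.97% of all genes. The median log2 change was −0.06 beside 0.02 for all genes. Kcnj3, the GIRK1 subunit, had 15.4 and 17.7 CPM in WT and 4.53 and 6.10 in Mettl3 KO soma (−1.62 ± 0.38, adjusted p = 0.158). Kcnf1 had 40.2 and 42.8 against 19.0 and 17.5 CPM (−1.16 ± 0.35, adjusted p = 0.31). The libraries did not overlap in either gene, nor in Kcnip4, a Kv4 auxiliary subunit gene (−1.24 ± 0.44, adjusted p = 0.411).

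The 3 genes with the smallest p toward higher levels in KO soma were Kcnj10 (3.43 ± 1.16, adjusted p = 0.388), Kcnj12 (1.80 ± 0.76, adjusted p = 0.503) and the Kv1.3 gene Kcna3 (1.71 ± 0.76, adjusted p = 0.539). Kcnj10 had 2.36 and 2.00 CPM in WT soma and 36.0 and 9.17 in Mettl3 KO soma. The astrocyte marker sum was 1201 and 1218 CPM in WT and 2472 and 2060 in Mettl3 KO soma, a smaller relative difference. Its part in the Kcnj10 values was not tested. Kcnj12 and Kcna3 both rested on KO replicate 2, without which their changes were −0.01 and 0.40. Kcna3 had 9.47 and 7.47 CPM in WT and 10.8 and 45.03 in Mettl3 KO soma.

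In neurites edgeR called none of 76 (0.0642% of all genes were higher and 0.124% lower). Before adjustment 8 passed a p of 0.05, 1 higher and 7 lower, beside 7.47% of all genes, and the median was −0.25 beside 0.01. Kcnj10 was again highest, with 8.18 and 2.89 CPM in WT and 110 and 16.8 in Mettl3 KO neurites (3.47 ± 1.17, adjusted p = 0.434), and the voltage-gated modifier Kcng4 (1.25 ± 0.60) and Kcna3 (1.22 ± 0.76) followed. Among genes with a mean count of 100 or more, the smallest p toward lower levels were those of Kcna2 (−0.96 ± 0.37), Kcnq5 (−1.01 ± 0.39) and Kcnd2 (−1.07 ± 0.45), at adjusted p of 0.537, 0.545 and 0.613. Kcna2 had 14.5 and 16.6 CPM in WT and 6.46 and 9.67 in Mettl3 KO neurites. Kcnq5 had 7.40 and 7.08 against 2.7 and 4.54 CPM, and Kcnd2 15.3 and 16.9 against 8.12 and 7.49 CPM. All KO libraries lay below all WT libraries in these genes. DESeq2 called Kcnj10 and Kcnj3 in soma and Kcnj10 and the low-count Kcnj14 (−1.94, adjusted p = 0.0453) in neurites. Over all genes DESeq2 called 191 higher and 226 lower of 23750 in soma, and 115 and 198 of 21814 in neurites.

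Leaving both libraries of KCl-treated Mettl3 KO insert 1 out of the fit, an alternative chosen after the data were seen, changed these counts. Kcnj3 (−1.66, adjusted p = 0.00737), Kcnd2 (−1.11, adjusted p = 0.0269) and Kcnf1 (−1.20, adjusted p = 0.0292) were then called lower in soma, and Kcnd2 (−1.04, adjusted p = 0.0362) and Kcnc2 (−1.37, adjusted p = 0.0135) lower in neurites. None was called higher. Calls over all genes also grew in this fit. It called 123 higher and 296 lower of 23750 genes in soma, and 77 and 193 of 21814 in neurites. The Ctrl groups compared kept 2 libraries each.

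**Figure D5:**
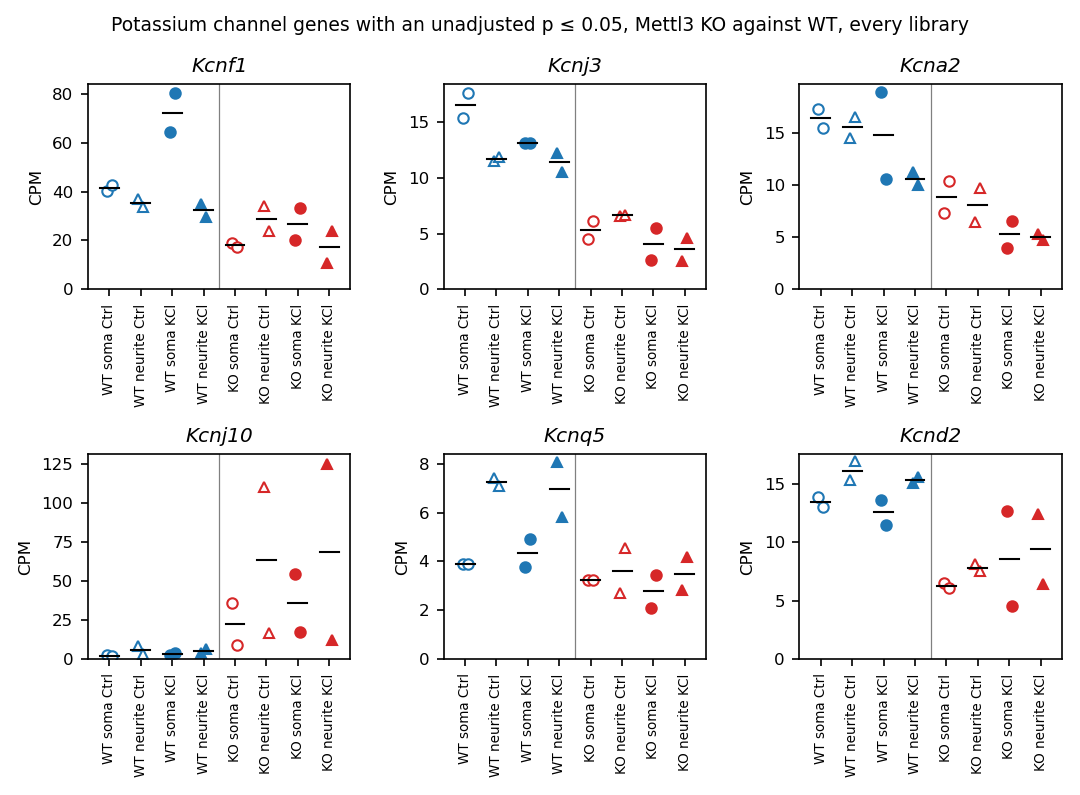
CPM (y axis, from 0) of 6 potassium channel genes in Mettl3 KO and WT, in each of the 16 libraries; circles are soma and triangles neurites, open for Ctrl and filled for KCl, blue for WT and red for Mettl3 KO, with a bar at the mean of 2. Kcnf1 and Kcnj3 are lower in Mettl3 KO Ctrl soma than in WT, and Kcnj10 is spread from 9.17 to 110 CPM in Mettl3 KO Ctrl.

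The change in neurite enrichment between Mettl3 KO and WT Ctrl, by the same limits as for KCl, was higher for 2 genes of 78 (2.91% of all genes) and lower for 1 (1.28%), and the same 3 passed the p without a fold limit, beside 4.20% of all genes. The median was −0.15 beside −0.03. These calls were made with a term per insert, and without it no gene of the 78 was called. Kcnf1 had a difference of 0.83 ± 0.31 and Kcnj3 of 0.79 ± 0.32 (adjusted p = 0.934 each). In Mettl3 KO Ctrl neurites Kcnf1 had 34.0 and 24.1 CPM and Kcnj3 6.59 and 6.71, both above their KO soma libraries, while in WT Ctrl the neurite libraries of both lay below the soma libraries. Raw neurite counts of Kcnf1 were 1906 and 1136 in WT Ctrl and 1473 and 864 in Mettl3 KO Ctrl. Those of Kcnj3 were 595 and 399 against 286 and 241. These raw counts are not scaled for library size. Soma levels of both genes were lower in Mettl3 KO, as given above, but not called, and the same soma libraries enter the ratios. Whether soma or neurite levels changed the ratios was not tested. Kcnk5 had −2.76 ± 1.10 (adjusted p = 0.934), on counts of 19 and 21 in KO soma and 8 and 0 in KO neurites. Below these in p stood Kcna4 of the Kv1 family (0.53 ± 0.37) toward neurites and Kcnc2 (−0.60 ± 0.32), Kcnq5 (−0.82 ± 0.47) and Kcnmb2 (−0.49 ± 0.29) toward soma.

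No potassium channel gene passed an adjusted p for this change. The calls of Kcnf1, Kcnj3 and Kcnk5 were lost without WT Ctrl insert 1 or 2. Which genes were called also varied without Mettl3 KO Ctrl insert 1 or 2. Such fits leave 1 insert in a group, so only sizes of change are given for them. The values for Kcnf1 stayed between 0.75 and 0.98 in all 12 alternatives, and those for Kcnj3 between 0.69 and 0.95. The value for Kcnk5 ran from −7.78 without Mettl3 KO Ctrl insert 1, where the KO neurite library left has a count of 0 and the value is no bound, to −1.67 without insert 2. Within Mettl3 KO Ctrl, edgeR called no gene of any kind for neurites against soma (0%). None of the 78 potassium channel genes passed a p of 0.05 before adjustment, beside 5.49% of all genes. DESeq2 called none of the 78, beside 12 higher and 5 lower of all 22557 genes. Kcnab2 had 171 and 183 CPM in KO soma and 416 and 417 in KO neurites, both neurite libraries above both soma libraries, with a log2 ratio of 1.17 ± 0.73 (adjusted p = 0.847). The BK beta gene Kcnmb4 (1.01 ± 0.51) and Kcnh3 of the EAG family (0.68 ± 0.54) had the other small p toward neurites, and Kcnj12 (−1.49 ± 0.98), Kcns3 (−0.78 ± 0.55) and Kcnj4 (−0.79 ± 0.63) toward soma.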

How the data were processed

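RNA-seq of soma and neurite fractions (16 libraries) and DART-seq were measured in the cultures described above. Per the submitters' processing notes the build was mm10 and the tools STAR 2.7.7a and featureCounts 2.0.1. The authors counted fragments over the exons of each gene, multi-mapping ones included, and deposited raw counts. The kit does not mark strand, so a gene and an antisense neighbour cannot be separated where their exons overlap. A gene on the other strand overlaps the span, introns included, of 35 of the 83 genes. This holds for 6 of the 22 called: Kcnab2, Kcnj3, Kcnj9, Kcnk1, Kcnk13 and Kcnq5. Overlap of exons was not examined. The DESeq2 tables deposited by the authors hold mean scaled count signals, log2 fold changes and p-values. Only their gene IDs, symbols and biotypes were used, and the fold changes and p-values in the DART-seq table were not. The authors' DART-seq score is a sum over sites of average C2U fractions, and the deposited site value is such a fraction.

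Counts were fitted in edgeR 4.0.16 (R 4.3.3) with TMM scaling and two-sided quasi-likelihood tests, p being adjusted by Benjamini-Hochberg over all genes whose mean count reached 10. WT comparisons used the 8 WT libraries, KO against WT all 16 and KO alone 8. Changes in enrichment had a term per insert, taking soma and neurite libraries of 1 number as an insert. Mitochondrially encoded genes were left out. CPM were TMM-scaled, FPKM divide CPM by the deposited exon length in kb, and ± is the SE, with n = 2 per group. Site places are from GENCODE M21 and sequences from RefSeq GRCm38.p6. Scripts were tested on simulated data. Alternatives were DESeq2 1.42.0, RLE scaling, other count filters, other sets of libraries, the replicate block and each library left out. Genes named are the 10 most abundant, landmark genes, those with the highest scores or most sites, the called genes, and the 3 of smallest p per direction where fewer than 3 were called. The genes and lists were chosen with earlier results of these data known. Single DART-seq libraries were not analysed here. A few genes and 1 site, included in counts and sums, are not reported here by name.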

Additional observations from a re-analysis of the deposited data

Results flagged for a closer look

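The neurite-to-soma ratio of 4 gene and contrast pairs differed between conditions by 1.5-fold or more and passed the test of the difference itself before adjustment of p. Between KCl and Ctrl in WT this was Kcnf1, at −0.85 on the log2 scale. Between Mettl3 KO and WT Ctrl it was Kcnf1 at 0.83, Kcnj3 at 0.79 and Kcnk5 at −2.76. None passed an adjusted p (0.999 for the first and 0.934 for the others), and beside them 2.00% and 2.91% of all genes were higher and 1.35% and 1.28% lower. These contrasts share the WT Ctrl libraries, and Kcnf1 soma in WT Ctrl (40.2 and 42.8 CPM) enters both. Groups of 2 libraries were too small for a test of single outlying libraries.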

How the results depend on the processing

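Over 69 pairs of a named gene and a comparison, 768 alternatives were run: 643 kept direction and side of the threshold, 101 kept direction only and were no longer called, 21 became called and 3 reversed. Reversed were Kcnj12 in Mettl3 KO against WT soma (−0.0103, range up to 2.56) and in Mettl3 KO neurites against soma (0.36, range down to −2.15), both without KO soma Ctrl replicate 2, and Kcnn4 in the KCl response of KO soma (−0.0158, range up to 1.47), without KCl replicate 1. The causes were not tested.

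The number of potassium channel genes called changed as follows. For WT Ctrl neurites against soma (6) it was 10 with DESeq2, without the count filter, with a mean count of 100 and with the 4 libraries alone, 0 with all 16 libraries, and 1 to 9 without single libraries. For WT KCl (11) it was 0 with all 16 and 5 to 13 without single libraries. The KCl response in WT soma (7) had 1 with all 16 and 2 to 7 without single libraries, and in WT neurites (4) 0 and 1 to 3. The change in neurite enrichment by KCl (1) had 2 with DESeq2, 5 without the filter, 2 without the insert block and 0 with adjusted p, and varied without single inserts. Mettl3 KO against WT soma (0) had 2 with DESeq2, 2 without the filter, 3 without KCl-treated KO insert 1 and 0 to 1 without single libraries. In neurites (0) it had 2 with DESeq2, 1 without the filter, 2 with the 4 libraries alone and 2 without that insert. The change in neurite enrichment in Mettl3 KO (3) had 0 without the insert block, 0 with adjusted p and 1 with the 8 Ctrl libraries, and varied without single inserts. The KCl response in KO soma (0) had 1 without the filter. With RLE scaling the mean FPKM in WT Ctrl soma was 14.2 for calcium- or sodium-activated channels, 24.01 for inward rectifiers and 179 for voltage-gated subunits, against 14.4, 24.4 and 182.

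Replicate numbers were not shown to pair the libraries in every group. The difference between replicates correlated across genes between soma and neurites at −0.0636 in WT Ctrl, 0.0765 in WT KCl, 0.0209 in KO Ctrl and 0.809 in KO KCl, where insert 1 stands apart, and between Ctrl and KCl at 0.0301 (WT soma), −0.0348 (WT neurites), 0.136 (KO soma) and 0.141 (KO neurites). Ctrl and KCl shared litters, but the labels do not say that a number marks one. With the replicate block the WT counts of called genes were 6 in Ctrl and 10 in KCl for neurites against soma, and 7 in soma and 3 in neurites for the KCl response, with Kcnk12 and Kcnv1 losing 1 call each. With 2 libraries a group, p-values rest on a spread shared across genes and groups, and changes of genes with few counts (Kcnk5, Kcnmb3) are the least precise.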

Other observations

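The neurite-to-soma log2 ratios of the Kv1 and Kv4 complexes in WT Ctrl are given here for each gene tested. The Kv1 alpha genes had −0.44 ± 0.13 (Kcna1), −0.14 ± 0.23 (Kcna2), −0.22 ± 0.17 (Kcna3), −0.32 ± 0.15 (Kcna4), −1.14 ± 0.27 (Kcna5), −0.44 ± 0.16 (Kcna6) and 0.01 ± 0.57 (Kcna7). The Kv beta genes had −0.52 ± 0.12 (Kcnab1), 1.53 ± 0.23 (Kcnab2) and −0.40 ± 0.22 (Kcnab3). The Kv4 alpha genes had −0.10 ± 0.23 (Kcnd1), 0.19 ± 0.14 (Kcnd2) and −0.54 ± 0.11 (Kcnd3). Their auxiliary KChIP genes had −0.17 ± 0.10 (Kcnip1), 0.56 ± 0.12 (Kcnip2), 0.15 ± 0.12 (Kcnip3) and −0.29 ± 0.19 (Kcnip4), and the partners Dpp6 and Dpp10 −0.66 ± 0.13 and −0.22 ± 0.11. Differences between genes were not tested.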
